A study of Rattus norvegicus with 6 samples.

Results

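The genes described here encode the machinery that fuses insulin granules with the plasma membrane: SNARE proteins, their Munc18, Munc13 and complexin partners, synaptotagmins, Rab effectors and the enzymes that take SNARE complexes apart. A list of 31 such genes was matched by symbol to the gene rows of the count files, and 30 of them had a row among 17055 gene rows. Cadps2 had none and was not analysed here. The filter on low counts kept 26 of the 30 for testing, and Rims1, Rph3a, Cplx1 and Doc2b are given as counts.

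The adult group held islets of Langerhans from 3-month-old male Sprague-Dawley rats (3 libraries), and the P10 group islets from 10-day-old Sprague-Dawley rats (3 libraries). Both ages were labelled as controls, and the sex of the pups is not given in the sources used here. The replicates are labelled as biological, without saying whether a P10 replicate pools several pups. Polyadenylated RNA was sequenced from whole islets, so a smaller number of cells of a type and less RNA per cell cannot be told apart. The title of the series names postnatal maturation of beta cells as its subject, and the comparison of the ages addresses how the transcripts change over it.

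Insulin leaves the beta cell by regulated exocytosis, as transmitter leaves a synapse. A v-SNARE on the granule zips together with t-SNAREs on the plasma membrane, Munc18 and Munc13 proteins prepare the syntaxin for this, and synaptotagmins couple the fusion to calcium. Beta cells share most of this equipment with neurons, and the same families also have widely expressed members that serve other transport steps in most cell types.

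Gene counts per library ran from 3307415 to 6477825, and levels are given as CPM, counts relative to the size of the library, with sizes adjusted by TMM (trimmed mean of M values). The insulin genes took 48.7% ± 3.11 of gene counts in adult islets and 31.4% ± 2.71 in P10 islets (SD, n = 3 each), which bears on how libraries are scaled. All 11 endocrine markers with a row were detected at both ages, with a summed level of 13672 to 14306 CPM in adult and 8518 to 9005 CPM in P10 libraries. Markers of beta cells summed to 538763 to 671933 CPM in adult and 227949 to 297227 CPM in P10 libraries. Markers of alpha cells, the glucagon cells, went the other way, with 13829 to 18585 CPM in adult and 25123 to 28056 CPM in P10 libraries. Acinar markers summed to 925, 1079 and 3599 CPM in adult replicates 1, 2 and 3 and 2407 to 3403 CPM in P10 libraries. Of the 7 acinar markers, 3 were called higher in adults (Cela1, Amy2a3 and Pnlip), 3 lower (Cpa1, Ctrb1 and Cpb1) and 1 did not pass. Markers of duct cells summed to 842 to 1137 CPM in adult and 2583 to 2886 CPM in P10 libraries. The 9 fibroblast markers summed to 261 to 364 CPM in adult and 2567 to 3283 CPM in P10 libraries, with Col1a2 at 0 in all. The 12 markers of neurons and Schwann cells summed to 74.5 to 127 CPM in adult and 126 to 196 CPM in P10 libraries, but did not move together. S100b, Ngfr and Gap43 were lower in adults (3 of 8 tested). Sox10, Prph, Stmn2, Elavl4 and Dbh did not pass, with log2 fold changes of -1.04, -0.71, -0.04, 0.47 and 1.99. Of the 8, the ages did not overlap for 4 that lay lower in adults, Sox10 among them, and for 2 that lay higher, Elavl4 and Dbh. Alignments that were not unique made up 17.8%, 15.1% and 16.2% of counted alignments in adult and 27.7%, 23.4% and 23.4% in P10 libraries, which do not overlap. The part of these differences in the results that follow was not tested.

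Of the 26 tested genes, 10 were higher in adult islets and 16 did not pass the threshold of 0.05 on the false discovery rate (FDR), by the quasi-likelihood test of edgeR. The 10 were Snap25, Vamp2, Syt4, Syt5, Syt7, Syt13, Sytl4, Unc13a, Unc13b and Napa. Of the 26, 6 were called and at least 2-fold higher, against 4.28% of all genes tested. No member was lower on this scale, also at an unadjusted p under 0.05 (0 genes) and in DESeq2 (0 genes, beside 11 higher). In the whole table, 12.5% of the 10124 tested genes, or 1265, were called higher and 13.8%, or 1394, called lower. Scaled to library totals alone these became 343 and 3612, with 7 members higher and 4 lower. The 26 genes had a median log2 fold change of 0.45, against -0.03 for the whole table. The libraries of the ages did not overlap in 14 of the 26, all higher in adults. In the whole table the ages did not overlap in 42.3% of genes, 20.0% higher and 22.3% lower in adults.

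**Figure D1:**
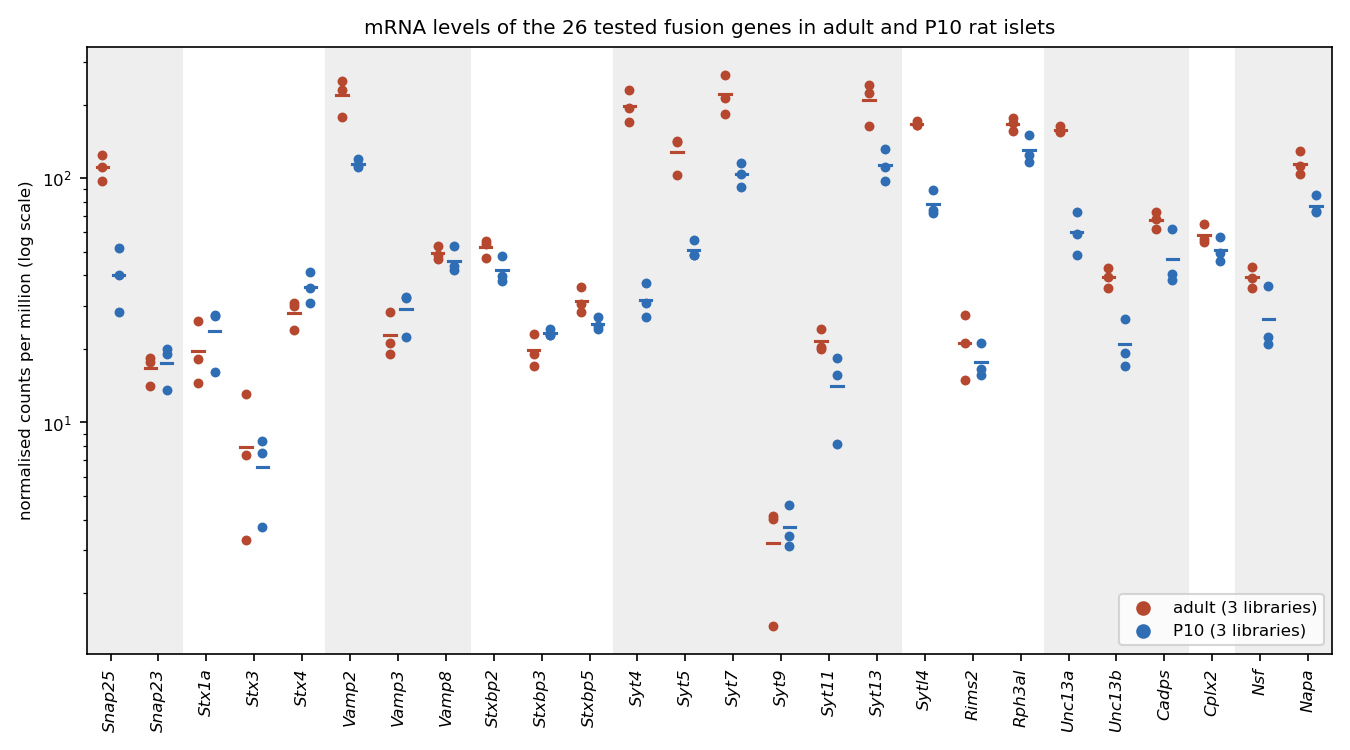
Normalised CPM (log axis, TMM scale) of the 26 tested fusion genes in each adult (left, red) and P10 (right, blue) library; dots are libraries, bars their means, and shading separates the roles in fusion. Snap25, Vamp2, Syt4, Syt5, Syt7, Syt13, Sytl4, Unc13a, Unc13b and Napa lie higher in all adult libraries than in any P10 library.

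Among the plasma membrane t-SNAREs, Snap25 rose and its widely expressed relative Snap23 did not pass. Snap25, the neuronal and endocrine t-SNARE that contributes a pair of helices to the SNARE bundle, had 97.5, 124 and 111 CPM in adult replicates 1, 2 and 3, against 28.3, 40.1 and 51.7 CPM in P10 replicates 1, 3 and 4. The lowest adult library lay well above the highest P10 library. It was 2.80-fold higher in adults, with a log2 fold change of 1.48 ± 0.20 (SE; edgeR FDR = 5.17e-05). Snap23 had 17.6, 18.3 and 14.1 CPM in adult and 19.1, 20.1 and 13.6 CPM in P10 libraries, which overlap. Its log2 fold change was -0.09, with a 95% interval of -0.68 to 0.49 (edgeR FDR = 0.839).

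None of the 3 syntaxins passed, also at an unadjusted p under 0.05 (0 genes) and in DESeq2 (0 genes). Stx1a, the syntaxin that pairs with Snap25 at the plasma membrane, had 14.5, 26.02 and 18.2 CPM in adult and 16.1, 27.5 and 27.2 CPM in P10 libraries. The ages overlapped, and the log2 fold change of -0.27 had a 95% interval of -0.88 to 0.34 (edgeR FDR = 0.534). The call of Stx1a depended on the scaling, and the gene was lower in adults with library totals alone (log2 fold change -0.78, edgeR FDR = 0.0400) and with libraries scaled to endocrine genes (-0.88, edgeR FDR = 0.0230). Stx4, a widely expressed syntaxin known from the insertion of glucose transporters in muscle and fat, had 30.8, 23.8 and 29.9 CPM in adult and 41.5, 30.8 and 35.4 CPM in P10 libraries (edgeR FDR = 0.242). Stx3, linked to fusion between granules, was the most variable of the 3, with 13.1, 3.30 and 7.34 CPM in adult and 8.41, 3.71 and 7.53 CPM in P10 libraries (edgeR FDR = 0.742).

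Of the 3 v-SNAREs, Vamp2 rose and the others did not pass. Vamp2 (synaptobrevin), the v-SNARE of synaptic vesicles and insulin granules, had 230.0, 251 and 178 CPM in adult libraries, against 119, 111 and 113 CPM in P10 libraries. The P10 libraries stood close together, below all adult ones, and Vamp2 was 1.91-fold higher in adults (log2 fold change 0.93 ± 0.14, SE; edgeR FDR = 0.000169). Vamp3 (cellubrevin), its widely expressed relative, had 21.1, 19.1 and 28.5 CPM in adult and 32.5, 22.3 and 32.3 CPM in P10 libraries. Vamp8 (endobrevin), a v-SNARE of endosomes and of granules in exocrine cells, had 48.4, 46.5 and 52.7 CPM in adult and 52.6, 43.5 and 42.0 CPM in P10 libraries. Neither passed, with log2 fold changes of -0.32 for Vamp3 (95% interval -0.84 to 0.19, edgeR FDR = 0.355) and 0.10 for Vamp8 (95% interval -0.27 to 0.46, edgeR FDR = 0.729).

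Of the Munc18 proteins, which hold syntaxins and guide their assembly, Stxbp2 and Stxbp3 were on the list, with Stxbp5 (tomosyn), an inhibitor of SNARE assembly. None of the 3 passed, also at an unadjusted p under 0.05 (0 genes) and in DESeq2 (0 genes). Stxbp2 averaged 52.2 ± 4.36 CPM in adult and 41.9 ± 5.39 CPM in P10 islets, and Stxbp5 31.5 ± 3.94 CPM in adult and 25.4 ± 1.41 CPM in P10 islets (SD, n = 3 each). Stxbp3, the partner of Stx4, averaged 19.7 ± 3.07 CPM in adult and 23.3 ± 0.78 CPM in P10 islets (SD, n = 3 each). Its 95% interval on the log2 scale ran from -0.75 to 0.25, and those of Stxbp2 and Stxbp5 from -0.06 to 0.69 and from -0.13 to 0.75.

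The synaptotagmins held the largest change on the list. Syt4 had 170, 229 and 195 CPM in adult libraries, against 27.0, 30.9 and 37.4 CPM in P10 libraries. Its ages were the farthest apart of all 26 genes, with a log2 fold change of 2.65 ± 0.17 (SE; edgeR FDR = 1.51e-08). Syt4 carries a substitution in its first C2 domain that removes calcium binding there, and in mouse it is known to change the calcium sensitivity of secretion as beta cells mature. Syt11, its closest relative, had 20.4, 24.2 and 20.01 CPM in adult and 8.14, 15.6 and 18.4 CPM in P10 libraries. These did not overlap, but the spread at P10 was wide and the gene did not pass (log2 fold change 0.63, 95% interval -0.03 to 1.28; edgeR FDR = 0.153).

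Syt7, a high-affinity calcium sensor of granule fusion in beta cells, had 266, 213 and 184 CPM in adult libraries, against 92.4, 104 and 116 CPM in P10 libraries (2.12-fold higher; edgeR FDR = 8.27e-05). Syt5 had 140, 142 and 103 CPM in adult libraries, against 55.9, 48.3 and 48.6 CPM in P10 libraries (2.51-fold higher; edgeR FDR = 2.02e-05). Both are thus higher in each adult library than in any P10 library. Syt9, the calcium sensor whose name has been exchanged with that of Syt5 in parts of the literature, was near the lower end of what was tested. It had 12, 4 and 22 reads in adult libraries, against 23, 23 and 19 reads in P10 libraries (edgeR FDR = 0.875). Its 95% interval of -1.51 to 1.17 on the log2 scale includes a change of 2-fold in either direction. Syt13, an atypical member without calcium-binding residues, had 241, 223 and 164 CPM in adult libraries, against 97.4, 111 and 132 CPM in P10 libraries (1.85-fold higher; edgeR FDR = 0.000835).

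Because all 6 synaptotagmins were read in the same libraries, the part that each took of their pooled reads does not depend on how libraries are scaled. Those pools held 2273 to 3645 reads in adult and 1469 to 2109 reads in P10 libraries. Syt4 took 25.6% ± 4.73 of them in adult and 9.95% ± 0.494 in P10 islets (SD, n = 3 each). Syt13 took 26.6% ± 2.10 in adult and 35.6% ± 1.37 in P10 islets, and Syt7 28.2% ± 3.04 in adult and 32.7% ± 0.476 in P10 islets (SD, n = 3 each). The ages did not overlap for these 3 genes, and 3 against 3 libraries allow no exact permutation p under 0.1. The parts of a pool sum to the whole, so the larger part of Syt4 in adults lowers those of the others, and the smaller parts of Syt13 and Syt7 are no fall of these genes, which were higher in adults by level. Syt5 took 16.4% ± 0.858 in adult and 16.2% ± 3.12 in P10 islets (SD, n = 3 each), which overlap. Syt11 took 2.77% ± 0.307 in adult and 4.34% ± 1.28 in P10 islets (SD, n = 3 each), which also overlap. Syt9 took 0.424% ± 0.222 in adult and 1.16% ± 0.115 in P10 islets (SD, n = 3 each), without overlap but on few reads.

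**Figure D2:**
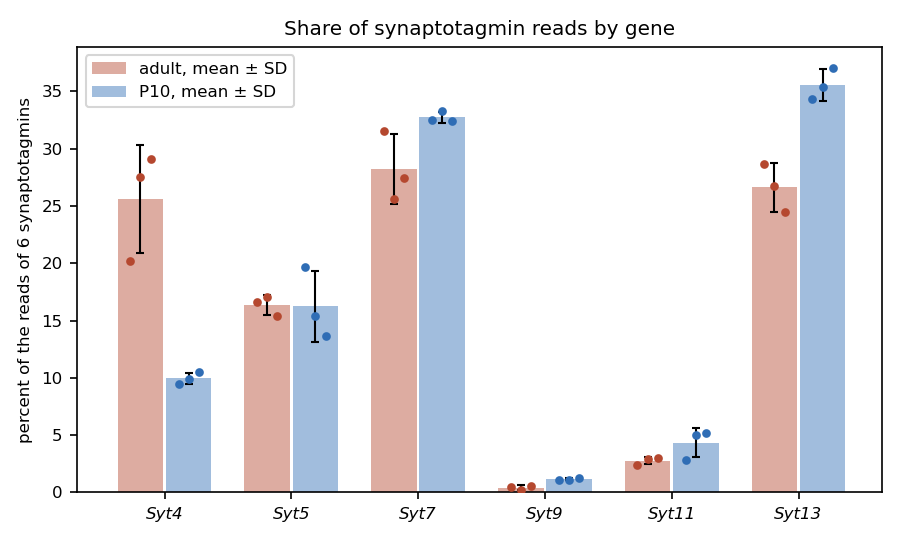
Percent of the pooled reads of 6 synaptotagmin genes that each gene took, in adult (left, red) and P10 (right, blue) libraries; bars are means, error bars SD over 3 libraries and dots the libraries. Syt4 took 25.6% in adult and 9.95% in P10 islets, and Syt13 26.6% in adult and 35.6% in P10 islets.

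The Rab effectors tether granules to the plasma membrane through Rab3 and Rab27. Sytl4 (granuphilin), which docks insulin granules, had 166, 165 and 172 CPM in adult libraries, against 74.3, 72.4 and 89.6 CPM in P10 libraries. The adult libraries stood close together (168 ± 3.91 CPM, SD, n = 3), above all P10 libraries, and Sytl4 was 2.13-fold higher in adults (log2 fold change 1.09 ± 0.14, SE; edgeR FDR = 2.62e-05). Rph3al (Noc2), an effector needed for regulated secretion in endocrine cells, had 176, 169 and 157 CPM in adult and 151, 116 and 125 CPM in P10 libraries. Its ages did not overlap, but the log2 fold change of 0.35 missed the threshold (edgeR FDR = 0.0681). Without P10 replicate 1 it passed (edgeR FDR = 0.0155). Rims2, an active zone scaffold that recruits granules to calcium channels, had 14.9, 27.5 and 21.1 CPM in adult and 16.5, 15.6 and 21.1 CPM in P10 libraries (edgeR FDR = 0.540).

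The brain-enriched relatives of these effectors had few reads. Rims1 had 1, 1 and 0 reads in adult libraries, against 14, 0 and 1 reads in P10 replicates 1, 3 and 4. Rph3a (rabphilin) had no read in adult libraries, and all of its 16 P10 reads lay in replicate 1. P10 replicate 1 alone thus held 14 of 15 P10 reads of Rims1 and every read of Rph3a. Summed counts gave a ratio of adult to P10 normalised counts of 0.22 for Rims1, with a 95% counting interval of 0.0244 to 0.944, which covers counting error only and not the spread between these P10 libraries.

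Priming factors make docked granules ready for release, and 2 of 3 were higher in adult islets. Unc13a, which opens syntaxin for SNARE assembly, had 164, 155 and 156 CPM in adult libraries, against 48.6, 59.1 and 72.6 CPM in P10 libraries. The adult libraries were close together and all above P10, a 2.64-fold rise (log2 fold change 1.40 ± 0.16, SE; edgeR FDR = 8.81e-06). Unc13b had 39.4, 35.6 and 43.0 CPM in adult libraries, against 17.1, 19.2 and 26.5 CPM in P10 libraries (1.90-fold higher; edgeR FDR = 0.00565). Cadps (CAPS1), a priming factor of dense-core granules, lay at the threshold. It had 72.6, 61.9 and 68.3 CPM in adult and 40.4, 38.2 and 61.9 CPM in P10 libraries, with P10 replicate 4 beside the lowest adult library. Its log2 fold change of 0.54 ± 0.19 (SE) missed the threshold (edgeR FDR = 0.0507). It passed without P10 replicate 4 (log2 fold change 0.79, edgeR FDR = 0.00939), with no filter on low counts (edgeR FDR = 0.0277), with the replicate number as a block (edgeR FDR = 0.0328), with relative log expression factors (edgeR FDR = 0.0447), with TMM factors taken without hormone and acinar genes (edgeR FDR = 0.0446) and in DESeq2 (adjusted p = 0.0418). These were 6 of 14 alternatives. With libraries scaled to endocrine genes the log2 fold change was -0.076 (edgeR FDR = 0.764), and with library totals alone 0.054 (edgeR FDR = 0.855). When other single libraries were left out, the edgeR FDR reached 0.180.

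Complexins clamp partly zipped SNARE complexes until calcium arrives, and Doc2b is a calcium-binding helper of fusion. Cplx2 had 56.4, 64.9 and 55.1 CPM in adult and 45.7, 57.5 and 49.5 CPM in P10 libraries, which overlap, with a 95% interval of -0.15 to 0.56 on the log2 scale (edgeR FDR = 0.406). Cplx1 was read 5, 7 and 8 times in adult libraries, against 2, 9 and 5 times in P10 libraries. As CPM these were 1.73, 2.57 and 1.47 in adult and 0.27, 1.34 and 1.21 in P10 libraries, which do not overlap. With no filter on low counts the log2 fold change of Cplx1 was 1.02 ± 1.31 (SE; edgeR FDR = 0.644), so no change was detected at this depth. Doc2b was read 17, 5 and 16 times in adult libraries, against 0, 8 and 2 times in P10 libraries, which as CPM do not overlap. With no filter on low counts its log2 fold change was 2.62 ± 1.19 (SE) and did not pass (edgeR FDR = 0.112).

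Nsf, the ATPase that pulls spent SNARE complexes apart, and Napa (alpha-SNAP), the adaptor that brings it to them, had almost the same fold change. Napa had 129, 112 and 104 CPM in adult libraries, against 85.0, 72.8 and 73.8 CPM in P10 libraries (log2 fold change 0.57 ± 0.14, SE; edgeR FDR = 0.00831). The rise of 1.48-fold was the smallest of the 10 called, and the call was lost without adult replicate 1 (log2 fold change 0.48, edgeR FDR = 0.0557) and with the replicate number as a block (log2 fold change 0.56, edgeR FDR = 0.0903). With library totals alone the log2 fold change was 0.078 (edgeR FDR = 0.727). Nsf had 35.6, 39.2 and 43.3 CPM in adult and 36.3, 22.4 and 20.9 CPM in P10 libraries. P10 replicate 1 reached the adult range and the gene did not pass (log2 fold change 0.56 ± 0.23, SE; edgeR FDR = 0.0855), whereas without that library it did (log2 fold change 0.88, edgeR FDR = 0.00624).

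Ratios of related genes within a library hold whatever the scaling, and 12 pairs were compared. In 8 of the 12 the ages did not overlap, each with an exact two-sided permutation p of 0.1 (n = 3 each, the smallest possible). After Benjamini-Hochberg adjustment over the 12, that p was 0.15. No share over all pairs of genes was computed to set beside this count, and 42.3% of single genes already did not overlap. The ratio of Snap25 to Snap23 reads was 5.49, 6.72 and 7.83 in adult libraries, against 1.48, 2.00 and 3.78 in P10 libraries, and averaged 2.96 times higher in adults. The ratio of Vamp2 to Vamp3 reads was 10.8, 13.04 and 6.25 in adult libraries, against 3.67, 4.97 and 3.50 in P10 libraries. Both put more reads on the neuronal and endocrine SNARE in each adult library than in any P10 library. The ratio of Vamp2 to Vamp8 also lay higher in adults, 1.77 times on average.

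For the syntaxins the ratios overlapped between the ages. The ratio of Stx1a to Stx4 reads was 0.475, 1.09 and 0.609 in adult libraries, against 0.390, 0.894 and 0.768 in P10 libraries (exact permutation p = 1, n = 3 each). The ratio of Stx1a to Stx3 was 1.10, 7.53 and 2.46 in adult libraries, against 1.91, 7.27 and 3.57 in P10 libraries (exact permutation p = 0.8, n = 3 each). Both varied more between libraries of an age than between the ages.

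Among the regulators, the ratio of Syt4 to Syt11 reads was 8.29, 9.41 and 9.69 in adult libraries, against 3.30, 1.98 and 2.02 in P10 libraries, 3.86 times higher in adults. This was the largest shift of the 12 ratios. Stxbp2 to Stxbp3 shifted 1.48 times and Unc13a to Unc13b 1.40 times, both upward in adults and without overlap. Syt7 to Syt9 and Cplx1 to Cplx2 also lay higher in adults without overlap, but rest on as few as 4 and 2 reads in a library. The pairs of Rims1 to Rims2 and Rph3a to Rph3al overlapped, and their adult minus P10 difference turned sign without P10 replicate 1.

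**Figure D3:**
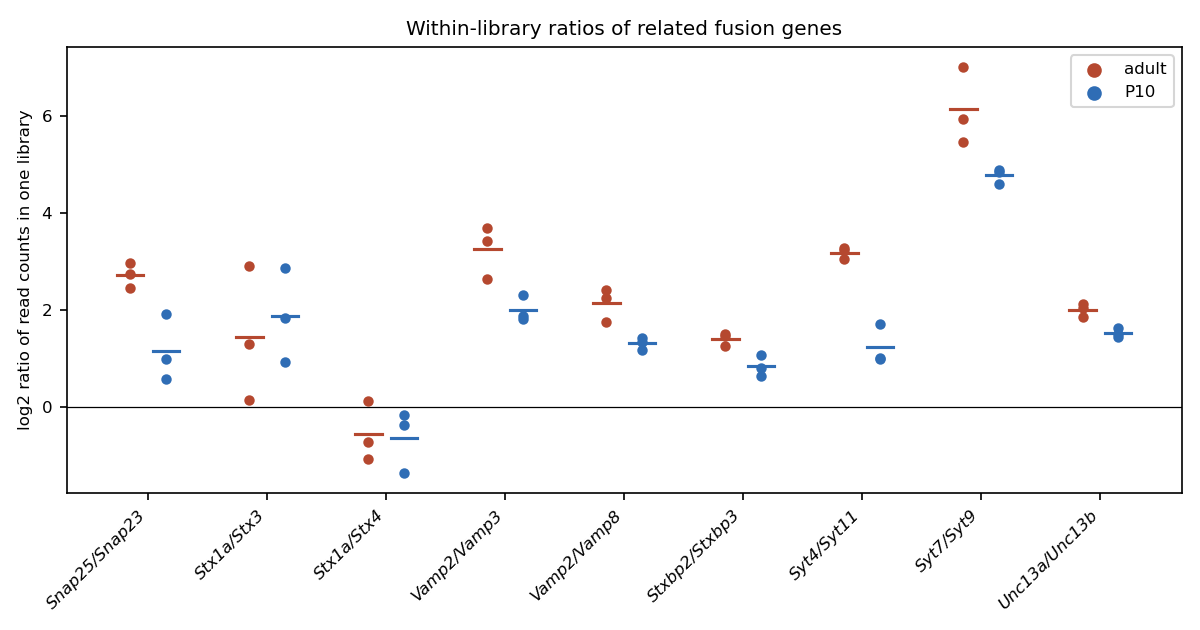
Log2 ratio of the read counts of 2 related genes in the same library, for the 9 pairs with at least 4 reads of each gene in every library; adult libraries (left, red) and P10 libraries (right, blue) as dots, means as bars. The ages do not overlap for 7 of these pairs and overlap for Stx1a/Stx3 and Stx1a/Stx4.

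To set the members against other endocrine genes, the libraries were also scaled to the geometric mean of 11 endocrine genes, among them Chga, Pcsk2 and Neurod1. Of these 11 genes 8 were higher in adults under TMM, so this scaling takes their own change as the zero line, and the median of all genes moved to -0.65 (log2). On it, Snap25, Syt4, Syt5, Syt7, Sytl4 and Unc13a remained higher in adults, 6 of the 26 members tested, beside 2.80% of all genes tested. Syt4 had a log2 fold change of 2.04 ± 0.18 (SE; edgeR FDR = 3.58e-07), Snap25 of 0.87 ± 0.21 (SE; edgeR FDR = 0.00299) and Unc13a of 0.78 ± 0.16 (SE; edgeR FDR = 0.00102). Vamp2, Syt13, Unc13b and Napa no longer passed, and Napa was level with the endocrine genes at -0.05 ± 0.15 (SE).

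On the endocrine scale Snap23, Stx1a, Stx4, Vamp3, Vamp8 and Stxbp3 were lower in adults, 6 of 26 genes, beside 44.4% of all genes tested. Stx4 had a log2 fold change of -0.97 ± 0.20 (SE; edgeR FDR = 0.00135) and Vamp3 of -0.95 ± 0.24 (SE; edgeR FDR = 0.00424). Of the 6, Stx1a is the neuronal and endocrine syntaxin (-0.88 ± 0.30, SE; edgeR FDR = 0.0230), and the others are expressed in many cell types. Fibroblast markers were lower in the same adult libraries, with 7 of 8 tested called lower and a median log2 fold change of -2.34 under TMM, and the part of those cells in these falls was not tested. Scaled to library totals alone, 7 members rose and 4 fell (Stx1a, Stx4, Vamp3 and Stxbp3), while the median of all genes was -0.52 (log2). Syt13 (edgeR FDR = 0.0843), Unc13b (edgeR FDR = 0.155) and Napa no longer passed on that scale.

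**Figure D4:**
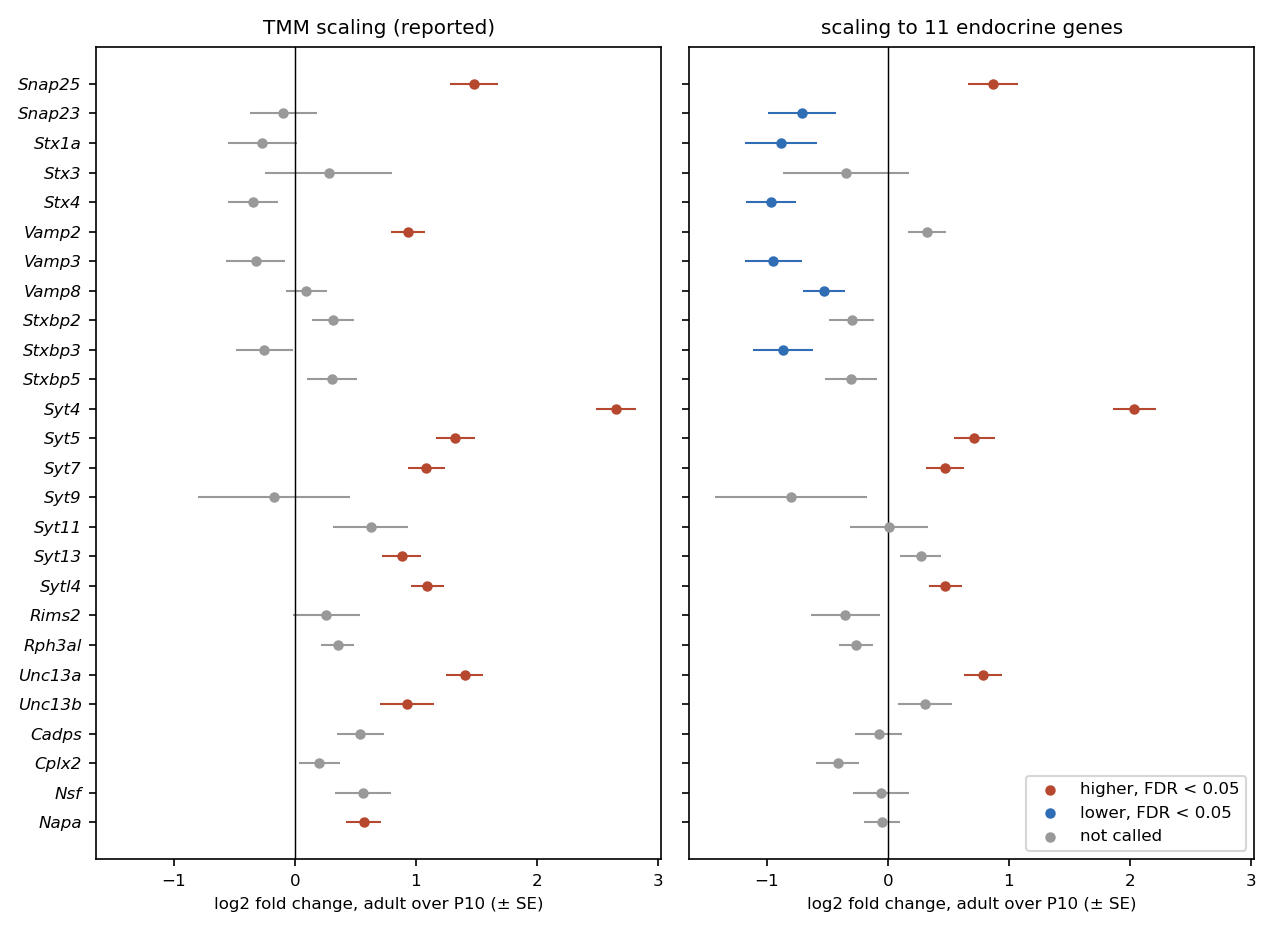
Log2 fold change, adult over P10, with its SE for the 26 tested fusion genes, under TMM scaling (left) and with libraries scaled to 11 endocrine genes (right); red is higher and blue lower at an FDR under 0.05 in edgeR, grey did not pass. Snap25, Syt4, Syt5, Syt7, Sytl4 and Unc13a are red in both panels, and 6 genes are blue in the right panel.

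Promoter windows from RefSeq (GRCr8; 250 bases before to 50 after the annotated start) were matched for 23 of the 30 genes with a row. They were searched on both strands for words of 2 neuroendocrine elements. The RE1 element binds REST, a repressor of neuronal genes that beta cells lack, and its arms were searched as CAGCACC and GGACAGC. The cAMP response element was searched as TGACGTCA and its core TGACG. Stretches of 100 bases show where the words lie in 3 genes called higher, Unc13a (chr16:18415775-18415874, minus strand), Syt4 (chr18:23320860-23320959, minus strand) and Napa (chr1:85915347-85915446, plus strand), beside Stx1a (chr12:27306460-27306559, minus strand), which did not pass under TMM and holds none. Each runs 5′ to 3′ on the gene's strand, ends 12 bases (Syt4: 4 bases) past the start, and has these words, or their reverse complement, in capitals.
Unc13a: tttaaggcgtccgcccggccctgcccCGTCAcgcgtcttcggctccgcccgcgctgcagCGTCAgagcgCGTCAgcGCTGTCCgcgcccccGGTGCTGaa
Syt4: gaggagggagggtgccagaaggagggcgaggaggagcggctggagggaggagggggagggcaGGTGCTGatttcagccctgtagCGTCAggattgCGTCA
Napa: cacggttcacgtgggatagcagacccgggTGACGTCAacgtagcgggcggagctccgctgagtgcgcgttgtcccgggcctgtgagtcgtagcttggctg
Stx1a: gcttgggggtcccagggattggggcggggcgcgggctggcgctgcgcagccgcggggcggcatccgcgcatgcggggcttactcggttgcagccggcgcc

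In these stretches Unc13a holds both RE1 arms and the cAMP core 3 times, and Syt4 holds 1 RE1 arm and the cAMP core 2 times. Napa alone among the 23 holds the full cAMP response element, a word in 1.83% of all 33469 windows. CAGCACC was in the windows of 4 of the 23 genes (Rph3a, Rph3al, Syt4 and Unc13a) and in 6.78% of all windows, and GGACAGC in 5 (Cadps, Rph3a, Stx3, Unc13a and Unc13b) and in 6.59%. The core TGACG, which also lies within the full element, was in 9 of the 23 and in 21.2% of all windows. For comparison, the E-box CACGTG was in 3 of the 23 and 6.42% of all windows, the GC box GGGCGG in 15 and 33.1%, and the TATA box TATAAA in 1 and 14.2%. Genes without a call hold such words as well: Rph3al, Stxbp2, Stxbp3, Cplx2, Cadps and Stx3, which did not pass, and the untested Rph3a and Cplx1 each hold an RE1 arm or the cAMP core. Among the genes called higher, Unc13b and Vamp2 also hold an RE1 arm or the cAMP core. None was found for Snap25, Syt5, Syt7, Syt13 and Sytl4, some of which had no window. A word in a window is a description of the sequence and not a binding site.

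Other genes of vesicle fusion, from a list of 106, moved in part with these. Of the 70 tested, 14 rose and 1 fell in adult islets, with a median log2 fold change of 0.36, against 12.5% of all genes tested higher and 13.8% lower. Pclo (piccolo), a giant scaffold of the active zone, had 127, 143 and 157 CPM in adult libraries, against 63.1, 53.8 and 71.9 CPM in P10 libraries (2.27-fold higher; edgeR FDR = 3.46e-05). Gosr2, a SNARE of the Golgi, had 97.9, 99.7 and 114 CPM in adult libraries, against 51.0, 64.3 and 59.2 CPM in P10 libraries (1.79-fold higher; edgeR FDR = 0.000721).

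Myof (myoferlin), a C2-domain protein of membrane repair, was the gene that fell, with 11.1, 6.96 and 8.45 CPM in adult libraries, against 30.0, 37.0 and 36.2 CPM in P10 libraries (log2 fold change -1.96 ± 0.26, SE; edgeR FDR = 4.81e-05). By role, 4 of 13 active zone and priming genes and 4 of 19 SNAREs of the ER, Golgi and endosomes were higher. None of 7 exocyst subunits passed, with 1 higher at an unadjusted p under 0.05 and 0 in DESeq2. None of the 5 other SNAREs of the plasma membrane and granules passed either, with 0 at an unadjusted p under 0.05 and 0 in DESeq2. Without adult replicate 1, 9 of these other genes were higher, and with library totals alone 2 were higher and 13 lower.

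**Figure D5:**
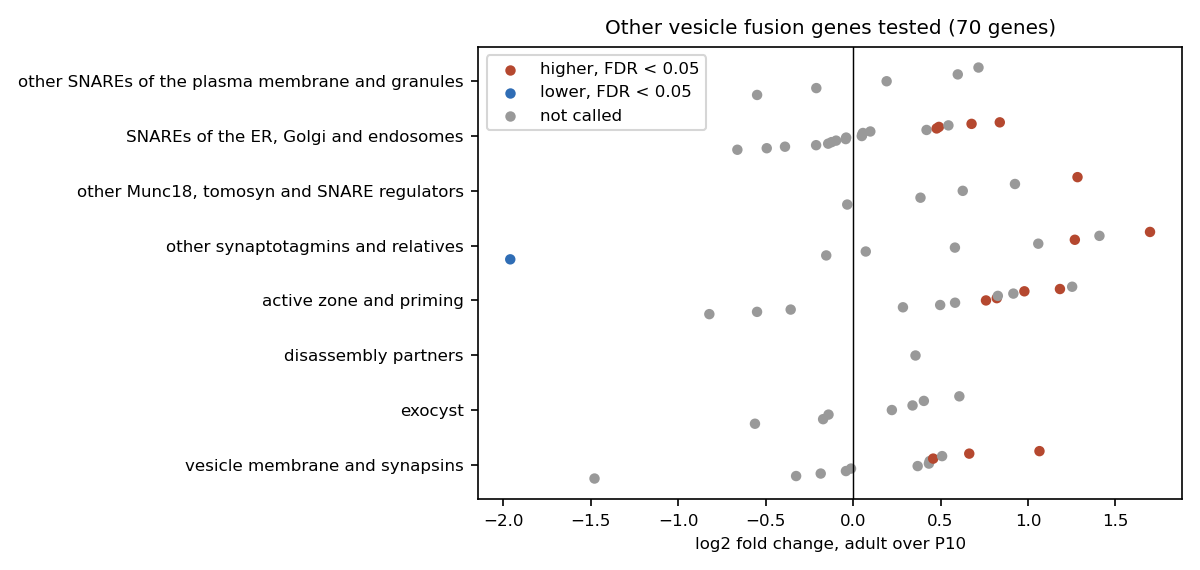
Log2 fold change, adult over P10, of 70 other tested genes of vesicle fusion, grouped by role; red dots were higher and the blue dot lower at an FDR under 0.05 in edgeR, grey dots did not pass. The 14 red dots lie mostly among active zone, Golgi and endosome SNARE and vesicle membrane genes, and none of the exocyst genes is red.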

How the data were processed

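Whole-number read counts for each gene, not normalised, were deposited by the authors for 6 libraries. The submitters' processing notes name the build rn5 and, with no roles, HTSeq, edgeR, DESeq, Bowtie2, TopHat and TopHat2 2.0.10. Per the labels' protocols the single-end libraries do not keep the strand, so reads of overlapping or antisense genes cannot be told apart. Counter rows of the deposited files stayed out of library sizes and tests: alignments that were not unique made up 15.1% to 17.8% in adult and 23.4% to 27.7% in P10 libraries, and ambiguous reads 0.319% to 0.474%, of gene counts and counters together. A deposited table of all libraries holds the same counts and was not used.

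Genes kept by filterByExpr (minimum count 10) were fitted with edgeR 4.0.16 in R 4.3.3, with TMM factors and age as the only term, and p-values were adjusted by Benjamini-Hochberg over all 10124 tested genes (threshold 0.05). The SE was taken from the F statistic (size of the log2 fold change over the root of F), and the 95% intervals use it. The biological coefficient of variation was 23.7%. Ratios within a library used counts plus 0.5 and exact permutation. The fit was tested on simulated data. Alternatives were other scalings, DESeq2 1.42.0, other filters, the replicate number as a block and leaving out each library. The members, lists and pairs were chosen with earlier results of these data known. All members are named, and of other fusion genes the 3 with the smallest p in each direction among those called. 1 gene that this rule names is not reported here.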

Additional observations from a re-analysis of the deposited data

How the results depend on the processing

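Across the alternatives Snap25, Syt4, Syt5, Syt7, Sytl4 and Unc13a kept their direction and their side of the threshold, with the lowest log2 fold changes at 0.87, 2.04, 0.72, 0.47, 0.48 and 0.78. Members higher numbered between 9 and 12 when single libraries were left out, with 0 lower, and 6 higher and 6 lower with scaling to endocrine genes; library totals alone gave 4 lower. Of all genes, 343 were higher and 3612 lower with library totals alone, so that 8.67% of calls were rises against 47.6%; 283 were higher and 4495 lower with endocrine scaling, where rises were 5.92% of calls; and 679 were higher and 729 lower with the replicate block. Single libraries left out gave 923 to 1262 genes higher and 1040 to 1266 lower. Other fusion genes numbered 2 higher and 13 lower with library totals alone, 2 higher and 18 lower with endocrine scaling, 7 higher with the replicate block, 2 lower with a filter of 5 CPM in 3 libraries, and 9 to 14 higher with single libraries left out. The 9 were without adult replicate 1.

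Replicate numbers 1 and 3 occur at both ages, but the labels do not tie them to shared animals or days, and deviations from the age means correlated at -0.036 for number 1 and -0.0046 for number 3 (8780 genes), so the numbers were not taken as pairs. With the replicate block 10 members were higher, 9 of them also among the reported 10.

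Signs that turned, none of a called gene except Napa, were as follows. With library totals alone and with endocrine scaling, the log2 fold changes were -0.17 and -0.34 for Stx3, -0.39 and -0.52 for Vamp8, -0.18 and -0.30 for Stxbp2, -0.19 and -0.30 for Stxbp5, -0.24 and -0.35 for Rims2, -0.14 and -0.26 for Rph3al, and -0.30 and -0.41 for Cplx2. With endocrine scaling alone they were -0.076 for Cadps, -0.055 for Nsf and -0.048 for Napa. With single libraries left out, Snap23 ran from -0.23 to 0.028, Stx3 from -0.25 to 0.63 and Syt9 from -0.38 to 0.15, and Syt9 was 0.32 with the replicate block. The ratios (log2, adult minus P10) ran from -1.16 to 0.23 for Stx1a to Stx3, from -0.28 to 0.34 for Stx1a to Stx4, from -1.65 to 0.67 for Rims1 to Rims2 and from -2.15 to 0.12 for Rph3a to Rph3al. The Stx1a to Stx4 ratio was -0.14 with the replicate block. The cause was not tested. Low counts limit Syt9, Stx3, Rims1, Rph3a, Cplx1 and Doc2b, for which 3 reads in a library correspond to between 0.407 and 1.0996 CPM.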
